A study of Mus musculus with 6 samples.

Results

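The 26S proteasome is the protease that degrades ubiquitin-tagged proteins in the cytosol and nucleus. The level of the transcripts for its subunits was followed in tissue from behind the forelimb bud of mouse embryos at embryonic day 9.5, in 3 samples labelled Fkbp8 mutant (a, b and c) and 3 labelled wildtype (d, e and f). All came from crosses between heterozygous carriers, none is labelled with a treatment, and each was measured on its own 1-colour CodeLink Mouse Whole Genome array. The labels describe neither the mutation nor the strain. The source label of mutant a names embryos in the plural and those of the other samples a single embryo, so mutant a may hold pooled tissue, which the labels do not settle. Members were the gene probes whose symbol starts with Psma, Psmb, Psmc, Psmd, Psme, Psmf or Psmg followed by a number. This gave 50 probes for 45 genes, of 34967 gene probes on the array. Of these, 48 probes for 43 genes stand for subunits, assembly factors or regulators of the proteasome. The other 2 genes, Psmc3ip and Psme3ip1, encode interacting proteins that are not subunits and were included by their symbol. The genes Psma4, Psmb3, Psmb10, Psme2 and Psme4 had no probe by this rule and were not analysed here.

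The proteasome consists of a barrel, the 20S core, and a cap on its ends, the 19S regulator. Rings of alpha subunits (Psma genes) form the gate of the barrel, and rings of beta subunits (Psmb genes) hold the proteolytic sites. In the cap, ATPases (Psmc genes) unfold the substrate, and non-ATPase subunits (most Psmd genes) recognise ubiquitin and remove it. Dedicated chaperones assemble both parts, and activators of the Psme family can replace the cap. Interferon and the thymus exchange the catalytic beta subunits for special forms used in antigen presentation. FKBP8 is a membrane-anchored immunophilin that binds the 26S proteasome, which raises the question whether transcripts of proteasome genes differ in its mutant.

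The sequences around the gene start are shown for 4 members. Psme3, Psmg1 and Psma5 had the lowest p-values of all members, and Psmb5 is the catalytic subunit whose groups did not overlap. Each runs 5′ to 3′ on the strand of the gene from 250 bases before its start to 50 bases after it, as given by RefSeq for build GRCm38.p6. Capitals mark matches on either strand to 6 short motifs. These are TGACNNNGC, the core of the antioxidant response element bound by Nfe2l1 and Nfe2l2, the CCAAT box, the site of ETS factors as CCGGAAG, the GC box as GGGCGG, the motif of nuclear respiratory factor as GCATGCGC and the gamma-activated site as TTCNNNGAA. Where matches overlap, the capitals run together. The windows lie at chr11:101315963-101316262 on the plus strand for Psme3, chr16:95990911-95991210 on the minus strand for Psmg1, chr3:108256676-108256975 on the plus strand for Psma5 and chr14:54617946-54618245 on the minus strand for Psmb5.
Psme3: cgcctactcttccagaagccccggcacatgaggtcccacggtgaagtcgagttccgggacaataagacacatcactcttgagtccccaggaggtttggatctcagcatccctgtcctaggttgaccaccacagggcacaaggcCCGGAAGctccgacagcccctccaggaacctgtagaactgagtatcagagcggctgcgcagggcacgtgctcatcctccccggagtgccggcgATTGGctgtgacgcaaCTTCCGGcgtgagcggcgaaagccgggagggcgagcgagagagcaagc
Psmg1: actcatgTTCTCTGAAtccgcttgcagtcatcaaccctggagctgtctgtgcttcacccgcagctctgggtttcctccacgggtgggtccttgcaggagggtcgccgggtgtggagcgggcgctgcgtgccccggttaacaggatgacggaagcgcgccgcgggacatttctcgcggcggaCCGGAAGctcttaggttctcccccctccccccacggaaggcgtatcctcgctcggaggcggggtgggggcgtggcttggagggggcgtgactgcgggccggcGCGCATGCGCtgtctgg
Psma5: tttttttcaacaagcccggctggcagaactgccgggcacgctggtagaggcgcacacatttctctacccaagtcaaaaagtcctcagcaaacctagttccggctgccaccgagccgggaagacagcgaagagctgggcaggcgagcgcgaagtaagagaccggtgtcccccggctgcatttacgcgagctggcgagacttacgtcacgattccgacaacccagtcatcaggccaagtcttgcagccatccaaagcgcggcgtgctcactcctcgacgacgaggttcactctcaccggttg
Psmb5: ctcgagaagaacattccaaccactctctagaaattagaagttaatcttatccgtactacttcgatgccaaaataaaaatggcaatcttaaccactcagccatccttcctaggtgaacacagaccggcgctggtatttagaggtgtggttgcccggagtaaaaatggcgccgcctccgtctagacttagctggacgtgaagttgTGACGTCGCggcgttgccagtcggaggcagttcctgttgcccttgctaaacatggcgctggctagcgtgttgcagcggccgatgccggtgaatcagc

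The Psmb5 window held 1 match, TGACGTCGC, 47 bases before the gene start. None of the 6 motifs was found in the Psma5 window. Psme3 had 2 matches to the ETS motif, 1 of them as CTTCCGG on the opposite strand, and 1 inverted CCAAT. The Psmg1 window held an ETS motif, a gamma-activated site and 2 overlapping nuclear respiratory factor motifs, which form the palindrome GCGCATGCGC. A window was listed for 35 of the member genes that are subunits or dedicated factors. TGACNNNGC was present in 5 of them (14.3%: Psmb5, Psmb6, Psmc6, Psmd9 and Psmd12), against 14.0% of all 27025 genes with a window. CCGGAAG was present in 13 member genes (37.1%) against 9.93% of all genes, and GGGCGG in 20 (57.1%) against 38.2%. GCATGCGC was present in 3 (8.57%: Psma2, Psmc5 and Psmg1) against 3.05%, and CCAAT in 13 (37.1%) against 41.1%. TTCNNNGAA was present in 3 member genes (8.57%: Psmb8, Psmd2 and Psmg1) against 9.55%. These shares are descriptions of letters in a window, since base composition was not matched and no binding was measured.

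A probe's level is its log2 intensity, after correction of the local background and quantile normalization of the 6 arrays, so that a difference of 1 is a 2-fold difference. Levels are compared between samples for the same probe, not between probes. A probe was tested when the scanner flagged it above background on at least 3 of the 6 arrays, which held for 21688 probes. Fkbp8 itself was at 10.66 ± 0.09 (SD, n = 3) in the wildtype and above background on none of the mutant arrays, at least 18.8-fold lower (limma, adjusted p = 1.18e-07). Between 57.6% and 61.8% of the gene probes were above background on each array, with the lowest share on mutant c. The trunk and tail marker list was tested in full (8 of 8 genes). Of the head markers, Otx2 was at background throughout, while Six3 and Emx2 were above background on all 6 arrays. The Y-linked genes Eif2s3y, Ddx3y, Uty and Kdm5d were higher and Xist was lower in all 3 mutant samples. Genotype and sex therefore cannot be told apart for any probe, those of autosomal genes included. Nothing in the labels states that samples of a group came from separate litters or pools, so the p-values refer to the spread among these 6 arrays, and 3 arrays a group limit the precision.

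Of the 50 member probes, 44 probes for 41 genes were tested, and 41 of these were above background on all 6 arrays. None of the 44 passed limma's test at an adjusted p under 0.05, where p-values are adjusted by Benjamini-Hochberg (BH) over all tested probes. Across the array 26 probes passed (0.12%). The lowest adjusted p of a member was 0.244, for Psme3. An unadjusted p under 0.05 was reached by 3 members, Psme3, Psmg1 and Psma5, which is 6.82% of the tested members against 12.2% of all tested probes. The median log2 fold change, mutant minus wildtype, was -0.02 over the members and 0.01 over all tested probes. Members ranged from -0.42 to 0.20, and their median size of change, regardless of sign, was 0.08 against 0.09 for all tested probes.

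The intervals of the fold changes give the size that these arrays could still have missed. For all 44 tested members the 95% interval of the fold change lay within 2-fold in either direction. For 43 it lay within 1.5-fold, the exception being a second, dimmer Psmb4 probe. An offset of 50 was added to the intensities before the log2 step, which shrinks the fold changes of dim probes. Background-subtracted intensities were only 29.8 to 48.6 for Psma8, 27.3 to 45.1 for Psmd11 and 64.4 to 94.6 for the dimmer Psmd12 probe. For these probes the intervals do not bound the change in transcript. The Psmd11 value went from -0.04 to -0.14 with plain background subtraction. The spread between arrays was also close to that of other probes. The median SD of a member was 0.10 in the mutants and 0.08 in the wildtype, against 0.11 and 0.09 over all tested probes. A negative log2 fold change was seen in 28 of the 44 members (63.6%) against 47.6% of all tested probes, but in only 18 of 44 when arrays were scaled by their median in place of quantiles, and in 23 of 44 in the authors' deposited table. Most members are bright, and median scaling moved the median of probes brighter than a log2 intensity of 11 from 0.0019 to 0.08. In tissue of mixed cells, fewer cells of a type and less RNA per cell cannot be told apart.

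**Figure D1:**
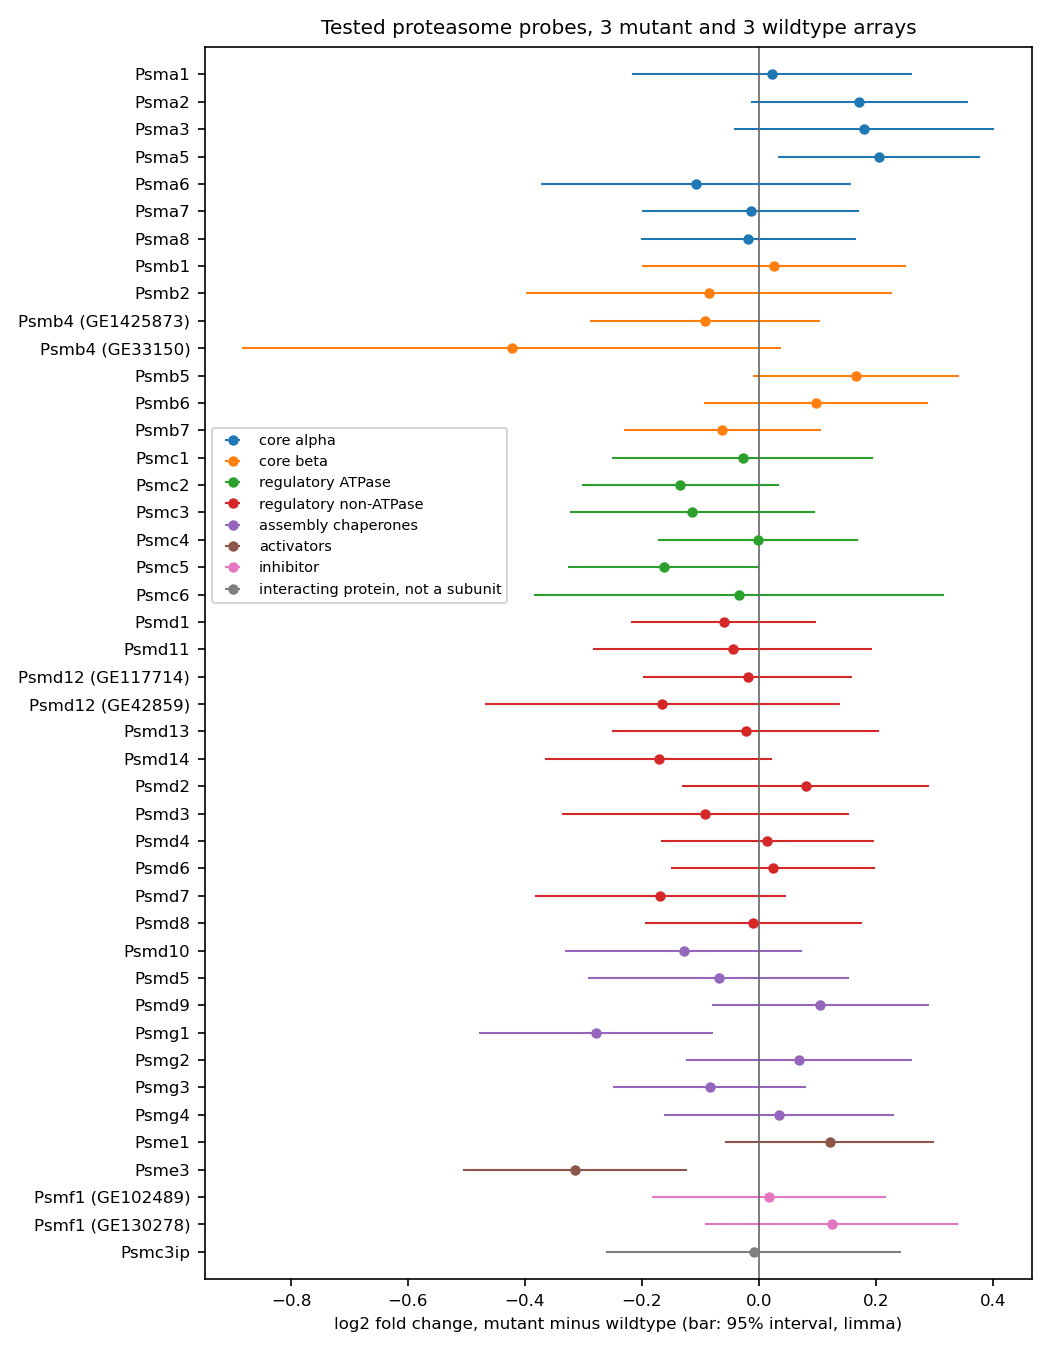
The log2 fold change, mutant minus wildtype, of the 44 tested proteasome probes (points) with limma's 95% interval (bars), coloured by class and with 0 marked by a line. Points lie between -0.42 and 0.20, none of the 44 passed at an adjusted p under 0.05, and the longest bar belongs to the second Psmb4 probe, GE33150.

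The 3 mutant and the 3 wildtype arrays did not overlap for 10 of the 44 members (22.7%), against 19.7% of all tested probes. The members were higher in the mutants for 4 of these (9.09%, against 11.2% of all tested probes) and lower for 6 (13.6%, against 8.56%). The 4 were Psma2, Psma3, Psma5 and Psmb5, all of the 20S core. The 6 were the ATPases Psmc2 and Psmc5, the non-ATPases Psmd1 and Psmd14, the chaperone Psmg1 and the activator Psme3. Of the 10, Psmd1 changed sign with median scaling. The exact two-sided permutation test over the 6 samples gave p = 0.1 for each of the 10, which is the smallest value that 3 against 3 samples allow.

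**Figure D2:**
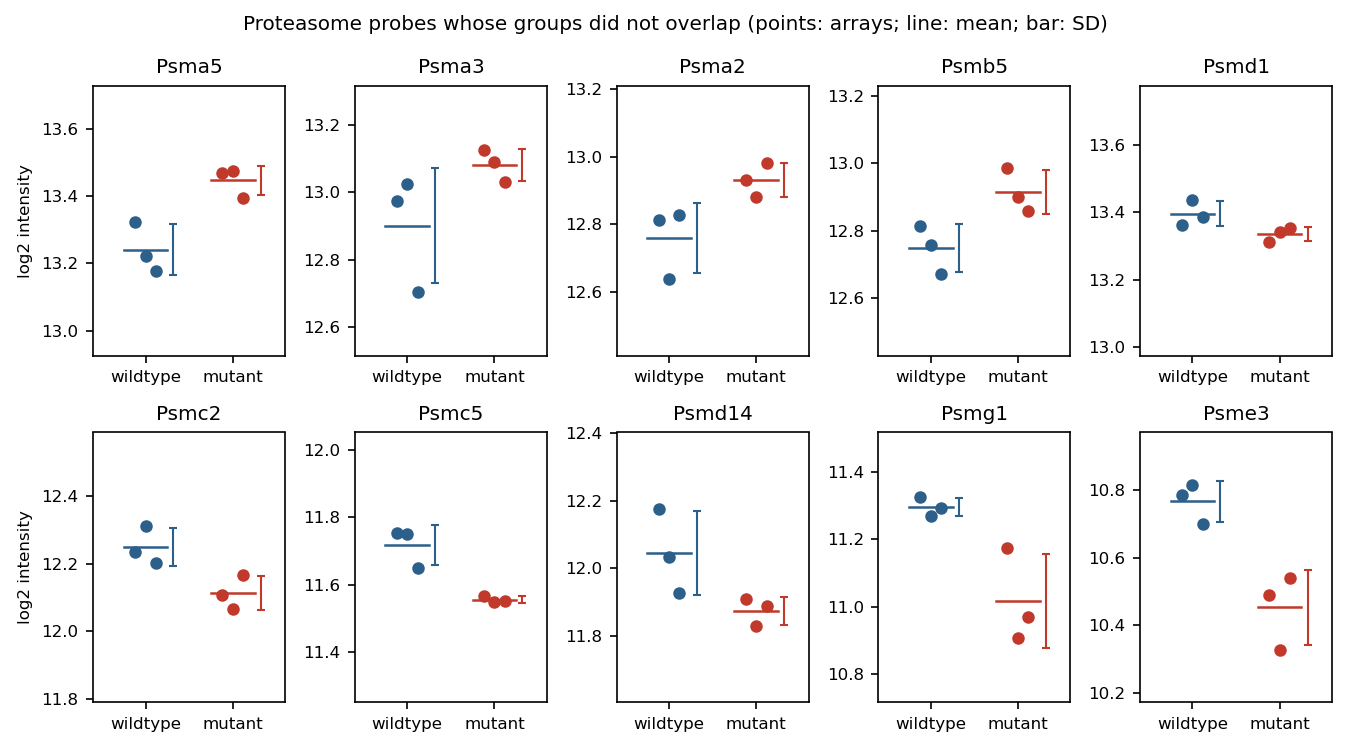
Log2 intensity of the 10 proteasome probes whose mutant and wildtype arrays did not overlap (points are arrays, lines are group means, bars are SD, n = 3 a group), each on a vertical axis of the same length. The core genes Psma5, Psma3, Psma2 and Psmb5 have higher points in the mutants and the other 6 have lower ones, by 0.06 to 0.31 on the log2 scale. With median scaling the value of Psmd1 turned positive, at 0.02.

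The alpha subunits of the core include the gate of the barrel, and 7 of 8 listed genes had a probe and were tested. Log2 fold changes were positive for 4 and negative for 3, with a median of 0.02. Psma5 read 13.47, 13.47 and 13.40 in mutants a, b and c and 13.32, 13.22 and 13.18 in wildtype d, e and f. All mutant arrays were thus above all wildtype arrays, by 0.20 on average (SE 0.08, 1.15-fold, limma BH-adjusted p = 0.344). Psma2 read 12.93, 12.88 and 12.98 in the mutants and 12.81, 12.64 and 12.83 in the wildtype (log2 fold change 0.17, SE 0.08, BH-adjusted p = 0.438). The groups did not overlap, with wildtype e the lowest array. Psma3, whose subunit takes part in closing the gate, read 13.12, 13.09 and 13.03 in the mutants and 12.97, 13.03 and 12.71 in the wildtype (log2 fold change 0.18, SE 0.10, BH-adjusted p = 0.489). Here the lowest mutant and the highest wildtype array nearly met, and wildtype f was the lowest array. Psma6 had the most negative value of the alpha subunits, at -0.11 (SE 0.12, BH-adjusted p = 0.735), with 12.24, 12.07 and 11.82 in the mutants and 12.02, 12.23 and 12.20 in the wildtype. Its groups overlapped, and without mutant c the value was 0.0048. The testis-enriched Psma8, which replaces an alpha subunit in spermatocytes, was near background, above it on 2 mutant and 3 wildtype arrays. With a filter on all arrays, which left Psma8 out, the alpha median was 0.097.

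Of the beta subunits, 6 of 7 listed genes of the constitutive core were tested, 3 with positive and 3 with negative values and a median of -0.02, which was 0.07 with median scaling. The 3 catalytic subunits did not all point one way. Psmb5, which carries the chymotrypsin-like activity and whose window with TGACGTCGC is shown above, read 12.98, 12.90 and 12.86 in the mutants and 12.81, 12.76 and 12.67 in the wildtype. Its groups did not overlap, with a log2 fold change of 0.17 (SE 0.08, 95% interval -0.01 to 0.34, BH-adjusted p = 0.428). Psmb6, the caspase-like subunit, read 13.32, 13.53 and 13.38 in the mutants and 13.31, 13.37 and 13.26 in the wildtype, with overlapping groups and a log2 fold change of 0.10 (SE 0.08, BH-adjusted p = 0.666). Psmb7, the trypsin-like subunit, read 12.43, 12.33 and 12.41 in the mutants and 12.48, 12.48 and 12.39 in the wildtype. These overlap too, with a log2 fold change of -0.06 (SE 0.07, BH-adjusted p = 0.761) that became 0.03 with median scaling. Psmb2, a structural subunit named after its values were seen, read 12.55 in mutant a, below 13.12 and 13.00 in mutants b and c, and 12.95, 13.03 and 12.95 in the wildtype. Its log2 fold change was -0.09 (SE 0.14) with all arrays and 0.08 without mutant a.

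The special beta subunits were at background in this tissue. The probes of Psmb8 and Psmb9, which interferon induces and which replace Psmb5 and Psmb6, were not above background on any of the 6 arrays. The same was true of Psmb11, the subunit of the thymus cortex. Psmb8 read 6.40, 6.31 and 6.28 in the mutants and 6.11, 6.39 and 6.30 in the wildtype, while the lowest value flagged above background was 6.37 to 6.47, depending on the array. Psmb9 read 6.03 to 6.20 in the mutants and 6.17 to 6.37 in the wildtype, and Psmb11 read 6.06 to 6.15 on all arrays. No fold change can be given between values at background. The blood cell markers Ptprc, Csf1r, Itgam, Aif1 and Cd3e, genes of leukocytes that carry these subunits in adults, were not above background either.

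**Figure D3:**
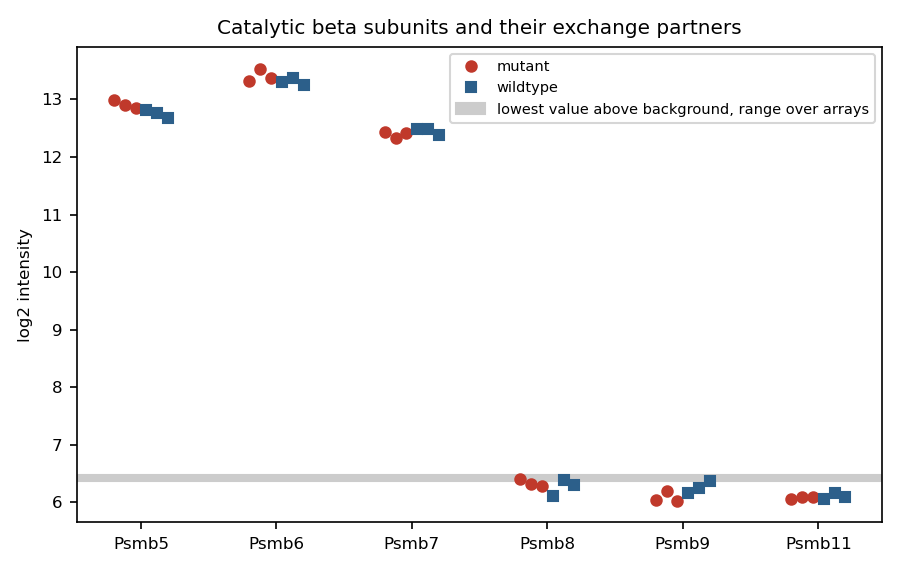
Log2 intensity of the 3 constitutive catalytic subunits (Psmb5, Psmb6 and Psmb7) and the special forms Psmb8, Psmb9 and Psmb11 on each array (circles are mutant, squares are wildtype), with a grey band for the lowest value flagged above background on the 6 arrays, 6.37 to 6.47. Points of Psmb8, Psmb9 and Psmb11 lie in or below the band, and none was flagged above background. Heights are not compared between probes.

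All 6 ATPases of the cap were tested on their brightest probe. Each had a negative log2 fold change in the quantile-normalized data, from -0.16 to -0.0017 with a median of -0.07, but only 3 of 6 had one with median scaling and 4 of 6 in the authors' deposited table. Psmc5 read 11.57, 11.55 and 11.55 in the mutants and 11.75, 11.75 and 11.65 in the wildtype (log2 fold change -0.16, SE 0.07, BH-adjusted p = 0.411). The groups did not overlap, and the mutant arrays had an SD of 0.01. Psmc2, also named after its values were seen, read 12.11, 12.07 and 12.17 in the mutants and 12.23, 12.31 and 12.20 in the wildtype (log2 fold change -0.13, SE 0.07, BH-adjusted p = 0.493), again without overlap. Psmc1 was named after its values were seen because its subunit is the one reported to bind FKBP8. It read 11.90, 11.67 and 11.98 in the mutants and 11.80, 11.89 and 11.96 in the wildtype. These groups overlapped on both sides, with a log2 fold change of -0.03 (SE 0.10, 95% interval -0.25 to 0.20, BH-adjusted p = 0.931), and the value was 0.06 with median scaling and 0.02 in the authors' deposited table. Psmc6, named for its spread, read 9.94, 9.79 and 9.30 in the mutants and 9.79, 9.76 and 9.58 in the wildtype. Its log2 fold change was -0.03 (SE 0.15) with all arrays and 0.15 without mutant c, the lowest array. Psmc4 was the closest to no difference, at -0.0017 (SE 0.08), and its second probe stayed at background throughout.

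Non-ATPase subunits were tested for all 11 listed genes, with 3 positive and 8 negative values and a median of -0.04. This median is the value of the dim Psmd11 probe. With a filter on all arrays, which left Psmd11 out, the median was -0.041. With median scaling 6 were positive and 5 negative. Psmd14, the deubiquitinase that cuts the ubiquitin chain off the substrate, read 11.91, 11.83 and 11.89 in the mutants and 12.18, 12.03 and 11.93 in the wildtype. Its groups did not overlap, with a log2 fold change of -0.17 (SE 0.09, BH-adjusted p = 0.458). Psmd7, its partner subunit, read 11.67, 11.50 and 11.79 in the mutants and 11.83, 11.74 and 11.90 in the wildtype, with overlap and a log2 fold change of -0.17 (SE 0.09, BH-adjusted p = 0.502). Psmd7 lies on the chromosome of Fkbp8, chromosome 8, with 267 tested genes between them. Psmd1, a large scaffold subunit named after its values were seen, read 13.31, 13.34 and 13.35 in the mutants and 13.36, 13.44 and 13.39 in the wildtype. Its highest mutant array lay just below its lowest wildtype array, the log2 fold change was -0.06 (SE 0.07, BH-adjusted p = 0.755), and it became 0.02 with median scaling. Psmd2, the other large scaffold, had the highest value of the class at 0.08 (SE 0.09, BH-adjusted p = 0.757), with 12.33, 12.22 and 12.22 in the mutants and 12.33, 12.16 and 12.03 in the wildtype.

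Several genes had more than 1 probe, and in each case the probes differed in brightness. The bright Psmd12 probe read 11.96, 11.76 and 11.41 in the mutants and 11.95, 11.89 and 11.78 in the wildtype, a log2 fold change of -0.17 (SE 0.13) in which mutant c was the lowest array. The dim one gave -0.02 (SE 0.08). For Psmb4 the bright probe read 12.88, 12.64 and 12.86 in the mutants and 12.88, 12.91 and 12.85 in the wildtype, a log2 fold change of -0.09 (SE 0.09). The dim Psmb4 probe had the most negative value of all members, -0.42 (SE 0.20, BH-adjusted p = 0.441), where wildtype f at 9.74 stood above 8.94 and 9.05 in wildtype d and e and 9.05, 8.63 and 8.77 in the mutants. The 2 Psmf1 probes gave 0.12 (SE 0.10) and 0.02 (SE 0.09), the second over 2 wildtype arrays because the spot on wildtype f was not usable. Psmf1 encodes the inhibitor PI31. The tested Psmd11 probe was above background on 2 mutant and 2 wildtype arrays, at -0.04 (SE 0.10), and its second probe was flagged on none.

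The 7 assembly chaperones were all tested, with 3 positive and 4 negative values and a median of -0.07, which was 0.0028 with median scaling. Psmg1 forms, with Psmg2, the chaperone on which the alpha ring is built. It read 11.17, 10.91 and 10.97 in the mutants and 11.32, 11.27 and 11.29 in the wildtype, whose 3 arrays had an SD of 0.03. The groups did not overlap, with a log2 fold change of -0.28 (SE 0.09, 95% interval -0.48 to -0.08, BH-adjusted p = 0.29). Psmg2 had a value of the other sign, 0.07 (SE 0.08, BH-adjusted p = 0.773), with 10.67, 10.58 and 10.78 in the mutants and 10.51, 10.64 and 10.66 in the wildtype. The highest value among the chaperones was that of Psmd9, a chaperone of the ATPase ring, at 0.11 (SE 0.08, BH-adjusted p = 0.628), with 9.65, 9.86 and 9.75 in the mutants and 9.69, 9.61 and 9.65 in the wildtype. Psmd10, the oncoprotein gankyrin and the X-linked member, read 9.39, 9.60 and 9.34 in the mutants and 9.53, 9.55 and 9.64 in the wildtype. Its groups overlapped through mutant b, with a log2 fold change of -0.13 (SE 0.09, BH-adjusted p = 0.584). As for every member, its genotype difference cannot be told apart from one of sex.

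The activators had 2 of 4 listed genes tested, and these had opposite signs. Psme3 encodes the nuclear activator PA28 gamma, which opens the core for ubiquitin-independent degradation of proteins such as cell cycle inhibitors. It read 10.49, 10.33 and 10.54 in the mutants and 10.79, 10.81 and 10.70 in the wildtype. All mutant arrays lay below all wildtype arrays, and the log2 fold change was -0.31 (SE 0.08, 95% interval -0.51 to -0.12), a mutant level 0.804 times that of the wildtype. With an adjusted p of 0.244 in limma it did not pass. Psme1, a subunit of the cytosolic activator that interferon induces, read 11.66, 11.78 and 11.83 in the mutants and 11.61, 11.62 and 11.68 in the wildtype, with overlap and a log2 fold change of 0.12 (SE 0.08, BH-adjusted p = 0.558). Of the interacting proteins that share the name, Psmc3ip, a meiotic recombination factor, gave -0.01 (SE 0.11), and Psme3ip1 was not above background on any array.

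Core and cap genes were set side by side on each array, a comparison chosen after seeing the values and given without a test. For each array the median deviation of the 17 cap genes from their 6-array means was subtracted from that of the 13 core genes. The difference was 0.16, 0.12 and 0.02 on mutants a, b and c and -0.07, -0.06 and -0.04 on wildtype d, e and f. The groups did not overlap in this difference, with mutant c the nearest to the wildtype. Its mean was 0.10 over the mutant and -0.06 over the wildtype arrays. The cap median is again the value of the dim Psmd11 probe, and was -0.047 with a filter on all arrays, which left that probe out. Between the median log2 fold changes of the classes, 0.02 for the core and -0.04 for the cap, the difference was 0.07. This measure takes the median at another step than the one per array, and the sizes differ. The difference of class medians stayed between 0.05 and 0.09 over the alternatives that scaled, filtered or left out another array, and was 0.16 without mutant c. With median scaling it was again 0.07, although the median of the cap turned positive, with 0.09 for the core and 0.02 for the cap. All alternatives reuse the arrays from which the comparison was chosen, so they give it no independent support.

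**Figure D4:**
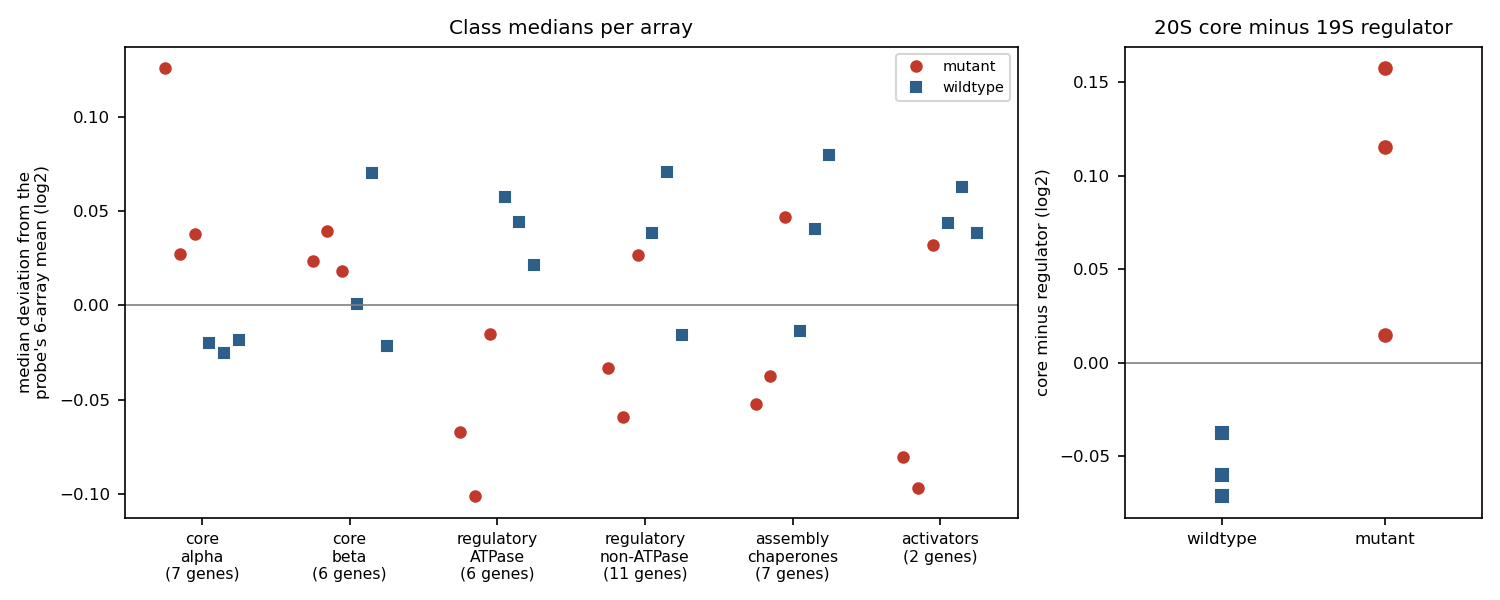
Left, the median deviation of each class of proteasome genes from its probes' 6-array means, on a log2 scale, for each array (circles are mutant, squares are wildtype, in the order a to f within a class). Right, the core median minus the cap median for each array, -0.07 to -0.04 in the wildtype and 0.02 to 0.16 in the mutants. The SD of this difference over 3 arrays was 0.07 in the mutants and 0.02 in the wildtype.

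Mutant b was the lowest array for 14 of the 44 tested members, against 4 to 8 for each other array. For the highest array the counts were 5 to 9. Marker lists of other cell types moved with the groups to different degrees. All 4 neural tube markers had negative log2 fold changes, with a median of -0.33, and Pax6 passed the test (log2 fold change -1.15, SE 0.09, limma BH-adjusted p = 0.0029). Sox2 was at -0.50 (SE 0.19), while Olig2 at -0.16 and Sox1 at -0.05 had overlapping groups. The summed intensity of the 4 markers, in which Sox2 has the largest part, did not overlap. It was 1005 to 1441 on the mutant and 1803 to 1891 on the wildtype arrays. Of the 8 trunk and tail markers, 7 had negative values with a median of -0.11 and none passed. All 7 tested erythroid markers had positive values with a median of 0.29, and none passed. Summed over the 6 erythroid markers with a value on every array, the groups overlapped, at 63753 to 69091 on the mutant and 56965 to 71122 on the wildtype arrays. The part of these lists in the values of the proteasome genes was not tested.

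Genes that work beside the proteasome were read from lists of the pathway. None of the 11 tested genes among other components and partners passed, with 3 positive and 8 negative values and a median of -0.09. Usp14, a deubiquitinase of the cap, had a log2 fold change of -0.82 (SE 0.37, BH-adjusted p = 0.421), with 8.26, 8.07 and 8.23 in the mutants and 10.04, 8.24 and 8.74 in the wildtype. The size of that value came mostly from wildtype d. Sem1, the smallest cap subunit, gave -0.25 (SE 0.12, BH-adjusted p = 0.428), with overlapping groups. Akirin2, a factor for nuclear import of the proteasome, gave 0.28 (SE 0.11, BH-adjusted p = 0.363) on one probe and -0.09 (SE 0.08) on a brighter one.

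When proteasome activity falls, the segregase p97 (Vcp) and the peptidase and glycanase that act after it release the factor Nfe2l1, which raises transcription of proteasome genes through the antioxidant response element. None of the 12 tested genes of this route passed, and 9 had positive and 3 negative values, with a median of 0.11. Without overlap of the groups, 4 were higher and 1 was lower in the mutants. Over all tested probes these shares were 11.2% and 8.56%. Vcp read 13.01, 12.87 and 12.54 in the mutants and 13.13, 13.25 and 13.27 in the wildtype. Its groups did not overlap, with a log2 fold change of -0.41 (SE 0.12, BH-adjusted p = 0.276). Nploc4, a cofactor of p97, was at 0.23 (SE 0.09, BH-adjusted p = 0.363) and Nfe2l2 at 0.25 (SE 0.10, BH-adjusted p = 0.370), both without overlap of the groups. Nfe2l1, named after its values were seen, read 8.34, 8.47 and 8.26 in the mutants and 8.21, 8.24 and 8.18 in the wildtype. Its groups did not overlap either, with a log2 fold change of 0.15 (SE 0.08, BH-adjusted p = 0.495). The 5 member genes with TGACNNNGC in the window had log2 fold changes of 0.17 for Psmb5, 0.10 for Psmb6, 0.11 for Psmd9, -0.03 for Psmc6 and -0.17 for Psmd12. A part of this route in these values was not tested.

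Ubiquitin and its activating and conjugating enzymes held 8 tested genes, with 3 positive and 5 negative values, and none passed. Of the COP9 signalosome, a complex related to the cap, 7 genes were tested and none passed, with a median of -0.01. Cops8 had the lowest p there, with a log2 fold change of -0.28 (SE 0.11, BH-adjusted p = 0.372) on one probe and -0.09 (SE 0.12) on another. Of the genes for antigen presentation and the interferon response, 7 were tested and 1 passed. That gene, Bst2, an interferon-induced membrane protein, was above background on 3 wildtype and none of the mutant arrays, at least 1.46-fold lower (limma, adjusted p = 0.037). The other interferon-related genes of the list gave no call, and Tap1, Tap2, Ifit1 and Gbp2 were, like Psmb8 and Psmb9, not above background on any array.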

How the data were processed

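Per the file headers, the CodeLink Expression Analysis software quantified each array and gave each spot a mean intensity, a local background median and a quality flag; the deposited series table holds the authors' normalized values, taken to log2 here after a floor of 0.1 and used only as an alternative. Intensities were corrected by normexp (offset 50) and quantile normalized, in R 4.3.3 with limma 3.58.1 (lmFit, eBayes, two-sided, Benjamini-Hochberg over all 21688 tested probes). Probes needed a good or saturated flag on at least 3 arrays and 2 usable spots per group. Each gene's brightest tested probe stood for it in a class. Groups came from the sample titles, with 3 mutant and 3 wildtype samples and no covariate. The procedure was tested on simulated data. Symbols came from the platform annotation, updated through RefSeq, or from the array's own description (2 of 50 members).

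Named members were those with the largest change in either direction in their class, the catalytic subunits and their exchange partners, the X-linked member, members on the chromosome of Fkbp8, members with several probes, the 6 lowest p-values and up to 6 with the largest change among members without overlap. Psmb2, Psmc1, Psmc2, Psmc4, Psmc6, Psmd1, Psmd11 and Psmg2, and Nfe2l1 outside the members, were added after their values were seen. Members and lists were chosen with earlier results of these data known. Alternatives changed the background correction, the scaling, the filter, the variance model and the arrays included.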

Additional observations from a re-analysis of the deposited data

Results flagged for a closer look

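Probes without a gene symbol lie outside the comparison of members, and 2 of them that the array describes as similar to proteasome proteins were above background on all 6 arrays. Probe GE1487201, described as similar to 26S proteasome subunit 9, had a mean log2 intensity of 11.10. It read 11.19, 11.10 and 11.31 in the mutants and 10.94 to 11.04 in the wildtype, without overlap, with a log2 fold change of 0.21 (SE 0.08, limma, BH-adjusted p = 0.367). Probe GE35953, described as similar to the theta chain of the rat proteasome, had a mean log2 intensity of 11.58 and overlapping groups, with a log2 fold change of -0.05 (SE 0.13, limma, BH-adjusted p = 0.907). Neither probe was assigned to a gene here.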

How the results depend on the processing

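No member passed at an adjusted p under 0.05 in any of the 15 alternatives, nor without the X- and Y-linked genes, an alternative chosen after seeing the data, nor at an adjusted p under 0.1. The lowest adjusted p of a member in any of the 15 was 0.168, for Psmg1 without mutant a. Of the 44 tested members, 23 kept their sign in all 15 and 21 did not. Over all probes 26 passed, against 16 with median scaling, 13 with plain background subtraction, 15 in the deposited table, 16 with a filter on all arrays, 14 without X and Y genes and 11 to 37 leaving out 1 array. Median scaling gave class medians of 0.094 for alpha, 0.069 for beta, 0.000045 for ATPase and 0.025 for non-ATPase subunits, 0.0028 for chaperones and -0.019 for activators. The deposited table gave 0.031 for beta subunits and -0.039 for ATPases. The filter on all arrays left out Psma8 and gave 0.097 for alpha subunits. Leaving out 1 array at a time gave class medians of 0.022 to 0.094 for alpha, -0.050 to 0.031 for beta, -0.13 to -0.064 for ATPase and -0.067 to 0.015 for non-ATPase subunits and -0.078 to 0.00041 for chaperones, and a core minus cap difference of 0.051 to 0.16. The log2 fold changes then ranged from -0.21 to 0.0048 for Psma6, -0.20 to 0.082 for Psmb2, -0.094 to 0.062 for Psmc1, -0.078 to 0.084 for Psmc3ip, -0.044 to 0.037 for Psmc4, -0.15 to 0.048 for Psmd11, -0.16 to 0.15 for Psmc6 and -0.054 to 0.033 for the dim Psmd12 probe. Among the members named in the text, signs reversed with median scaling for Psmb7 (0.028), Psmc1 (0.057), Psmc3ip (0.020), Psmc4 (0.086), Psmc6 (0.025) and Psmd1 (0.025), in the deposited table for Psmc1 (0.020) and Psmc4 (0.048), with array weights for Psmc4 (0.00087), and with cyclic loess for the dim Psmf1 probe (-0.0033). Apart from the loss of Psma8 under that filter, the cause of these changes was not tested. Psmb8, Psmb9 and Psmb11 at background give no value. No paired analysis was possible because the groups share no replicate letters.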
